A study of Mus musculus with 12 samples.

Results

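Complement genes were examined in the kidneys of 12 mice, with the 9 genes C3, C4b, C1qa, C1qb, C1qc, Cfb, Cfi, Cd55 and Cd59a taken by their symbols out of the 23420 genes counted. The mice were C57BL/6J males aged 8 to 15 weeks, 4 in each of 3 groups. The 4 control kidneys were obtained at nephrectomy, and the other 8 were obtained 24 h after an ischemia of 20 min produced by clamping the renal pedicle, a duration that the labels also attach to the controls. No kidney is labelled as sham-operated, so effects of the surgery that placed the clamp cannot be told apart from those of ischemia. The surgery described included buprenorphine and, where performed, removal of the right kidney. Ischemia was performed either under ketamine and xylazine or in mice that were conscious apart from brief isoflurane sedation to close and open the clamp. For the ischemic kidneys, title and group field disagree, so the 4 kidneys titled anaesthetised but grouped as conscious are called set A, the 4 titled conscious but grouped as anaesthetised are called set B, and no direction is given to anaesthesia.

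Complement is a chain of plasma and membrane proteins that tags and destroys microbes and damaged cells. The classical pathway starts when C1q, built from A, B and C chains, binds a target and leads to cleavage of C4. The alternative pathway uses factor B, the product of Cfb, and both pathways build convertases that cleave C3, the central component. Factor I (Cfi) cleaves active C3b and C4b, while CD55 dissolves convertases and CD59 blocks the terminal pore on the cell's own membrane. Most circulating complement is made in the liver, C1q comes mainly from macrophages, and kidney tubular cells can make C3 and factor B.

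Between 15367342 and 44793350 reads were assigned to genes per kidney, and set B was the shallowest group by its median. Values are given as raw counts or as CPM, the count scaled to the total of the library. A count of 0 allows up to 3 counts, which corresponds to between 0.067 and 0.195 CPM, and this limit covers counting error only. Kidney epithelial and podocyte markers were detected as labelled, with all 9 listed genes counted. Low counts were rare in these libraries, and of 281040 values over all genes 148861 were 0, 1353 lay from 1 to 3 and 19642 from 11 to 50. Detection followed transcript length, since 9.03% of the values were above 0 for genes with at most 1000 exonic bases, against 73.2% for genes with more than 5000. The widely expressed genes B2m and Cst3, looked up after the member values were seen, were listed at 0 in 8 and 9 of the 12 kidneys. A member listed at 0 is therefore described only as listed at 0.

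C3 is the member that rose in both sets, so the 250 bases before its start site are shown. The gene lies on the minus strand of chromosome 17 of mm10 from 57203970 to 57228136 and is protein coding. The sequence, from RefSeq on GRCm38.p6 (the same assembly as mm10), covers chr17:57228137-57228386 and is written 5′ to 3′ on the gene's strand. Capitals mark matches to motif letters on either strand.
C3 promoter: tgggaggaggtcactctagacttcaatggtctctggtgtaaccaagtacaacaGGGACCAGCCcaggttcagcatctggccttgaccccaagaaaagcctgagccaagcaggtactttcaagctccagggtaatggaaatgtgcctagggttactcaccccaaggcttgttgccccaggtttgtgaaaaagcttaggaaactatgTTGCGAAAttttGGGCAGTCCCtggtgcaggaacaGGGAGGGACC
A loose form of the site bound by NF-kB, read as 3 G and an A, then any 4 bases, then a pair of C, matched at 3 positions, of which the middle match is on the opposite strand. The letters TTGCNNAA, a loose form of the C/EBP site, matched once. Among the 32851 promoters of the same length, 17.6% held the first pattern and 9.56% the second, and no match overlapped another in C3. The TATA box letters TATAAA, searched on both strands like the others, had no match in this window and occurred in 12.4% of all promoters. The AP-1 letters TGANTCA had no match either and occurred in 6.75%. The same was true of the STAT letters TTCNNNGAA, which occurred in 7.02%. Promoters of 5 of the 9 members were matched by symbol, those of C1qb, C1qc, C3, Cd55 and Cd59a. The NF-kB pattern also matched at 2 positions in C1qb and at 1 each in C1qc and Cd55, and it had no match in Cd59a. Of these genes C1qb, Cd55 and Cd59a were tested and not called, and C1qc did not pass the low-count filter. The other 4 patterns had no match in the promoters of C1qb, C1qc, Cd55 and Cd59a.

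C3 rose strongly in both ischemia sets. The control kidneys had 11.0, 4.67, 12.3 and 9.34 CPM. After ischemia the values were 54.1, 79.3, 94.6 and 71.9 CPM for set A, and for set B they were 97.2, 89.0, 195.8 and 81.8 CPM. Every ischemic kidney lay above every control, and replicate 3 of set B stood above all the others. Group means were 9.32 ± 3.33 CPM (SD, n = 4) for control, 75.0 ± 16.8 CPM for set A and 115.9 ± 53.6 CPM for set B. Relative to control, set A had a log2 fold change of 2.99 with a standard error of 0.31 (edgeR quasi-likelihood test, Benjamini-Hochberg adjusted p = 5.94e-07). Set B had a log2 fold change of 3.61 with a standard error of 0.32 (edgeR, adjusted p = 7.43e-08). The comparisons share the 4 controls. With any of the 12 kidneys left out, the log2 fold change ranged from 2.77 to 3.15 for set A and from 3.23 to 3.77 for set B, past the threshold each time.

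Cfb, which encodes the protease subunit of the alternative pathway convertase, fell in both sets. The gene is on chromosome 17 of mm10, minus strand, from 34856374 to 34862518. Control values were 27.5, 28.9, 25.0 and 38.2 CPM. In set A the values were 5.59, 19.4, 9.91 and 7.37 CPM, and in set B they were 16.3, 11.4, 16.5 and 4.56 CPM. No ischemic kidney reached the lowest control, although replicate 2 of set A came closest. The log2 fold change was -1.53 (standard error 0.42, edgeR adjusted p = 0.0112) in set A and -1.31 (standard error 0.42, edgeR adjusted p = 0.0278) in set B. In set A the call held with each kidney left out. In set B it was lost without control replicate 2, control replicate 4, set B replicate 2 or set B replicate 4, with edgeR's adjusted p from 0.0537 to 0.0924 in those fits. In whole kidney RNA, fewer cells of a type and less RNA per cell cannot be told apart. The annotation also places Gm20547, a gene that spans 34856412 to 34882042 on the same strand, over most of Cfb, and this gene has no row in the count table, so reads from the overlap cannot be separated from those of Cfb.

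**Figure D1:**
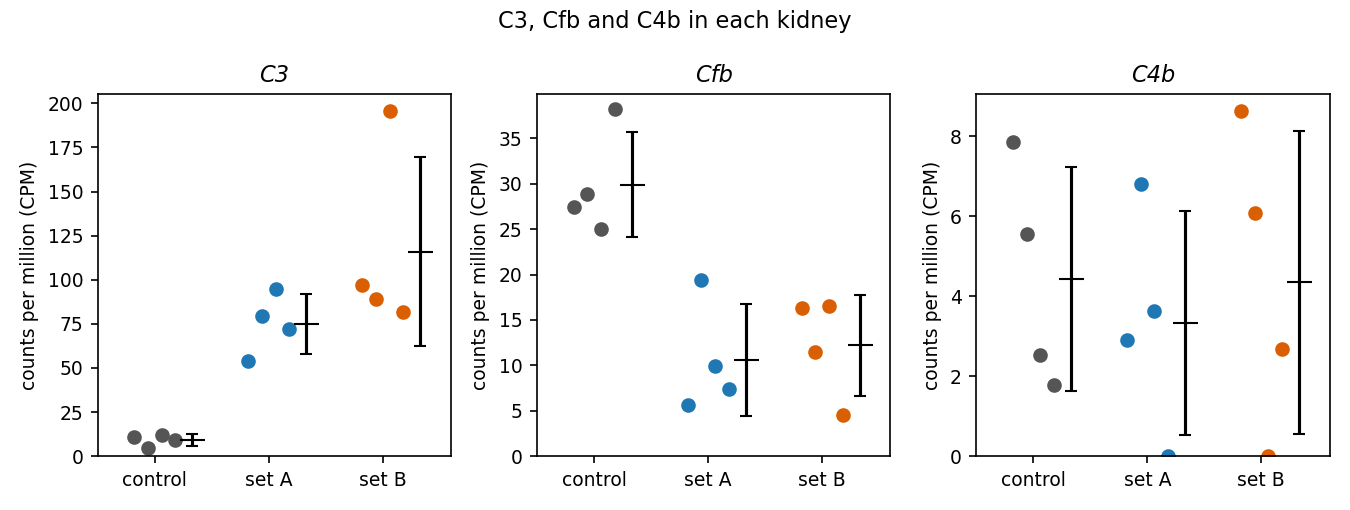
CPM of C3, Cfb and C4b on linear axes from 0, with a point for each of the 4 kidneys of a group and, to the right, the mean with a bar of 1 SD. C3 is above all controls in the 8 ischemic kidneys, Cfb is below all controls in them, and C4b overlaps between the 3 groups.

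Among the 11664 genes tested, 10.5% were called higher and 11.7% lower in set A at an adjusted p below 0.05. For set B the shares were 10.9% and 11.9%. Of the 9 members, 7 passed the low-count filter of edgeR, and C3 was the only member called higher and Cfb the only member called lower in each set. This is 1 of 7 tested in each direction, a share close to that of all genes. The median log2 fold change of the 7 members was -0.42 for set A and 0.02 for set B, against a median of -0.02 over all genes in each set. Groups without overlap occurred in 13.2% (higher) and 15.2% (lower) of all genes in set A against control, and in 12.1% and 14.7% in set B, and among the members C3 and Cfb had them.

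The opposite shifts of C3 and Cfb reversed their order. To compare the genes, CPM were divided by exonic length in kilobases, which gives a level per length (RPKM). In the controls, Cfb was the higher of the pair in every kidney, with a mean of 10.6 RPKM against 1.81 for C3. In set A, C3 had a mean of 14.6 RPKM and Cfb 3.74, and in set B the means were 22.5 and 4.32. The ratio of C3 to Cfb was 0.220, 0.0889, 0.270 and 0.134 in control kidneys. It was 5.31, 2.25, 5.24 and 5.36 in set A and 3.27, 4.28, 6.52 and 9.86 in set B. All 4 controls were below 1 and all 8 ischemic kidneys above it, while the sets overlapped each other. The ratio combines the changes already tested for each gene and was looked at after their values were seen, so it is given without a test. C4b was the lowest of the 3 in the mean of each group, at 0.778, 0.587 and 0.763 RPKM, and its range overlapped that of C3 in the controls.

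**Figure D2:**
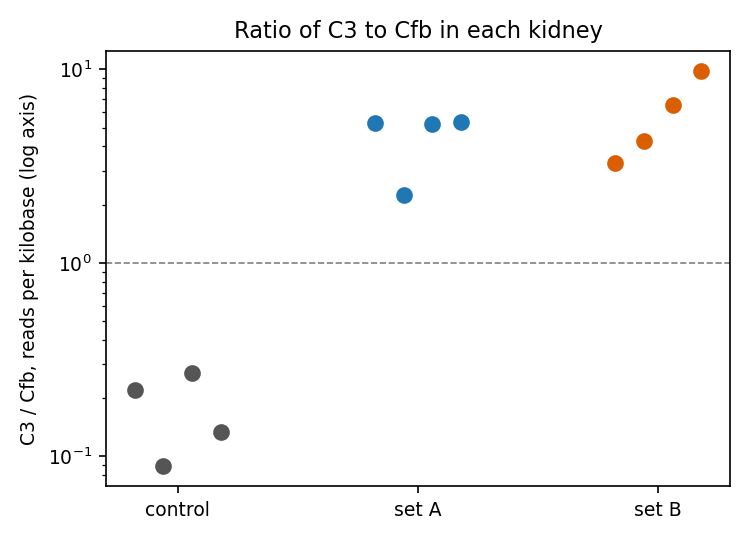
Ratio of C3 to Cfb in reads per kilobase, on a log axis, with a point for each kidney and a dashed line at 1. The controls lie between 0.0889 and 0.270 and the ischemic kidneys between 2.25 and 9.86.

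C4b, which encodes the C4 used by the classical and lectin pathways, varied widely within each group. The gene lies on chromosome 17 of mm10, minus strand, from 34728380 to 34743882. Its values were 7.86, 5.57, 2.54 and 1.77 CPM in control kidneys, 2.91, 6.82, 3.64 and 0 in those of set A and 8.63, 6.09, 0 and 2.67 in those of set B. A kidney of each ischemia set was listed at 0, although others of the same set had 91 counts or more (set A) and 41 or more (set B). The log2 fold change was -0.42 in set A (95% interval -2.96 to 2.11, edgeR adjusted p = 0.888) and -0.02 in set B (95% interval -2.55 to 2.51, edgeR adjusted p = 0.997). These intervals include a several-fold change in either direction, so a change of that size was not excluded.

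C4b has a near copy, C4a, a short distance away on the same chromosome from 34809092 to 34823464, which the annotation lists as a processed transcript. Transcripts C4b-201 and C4a-207 were 96.1% identical over 5367 aligned bases, with a longest identical run of 433 bases. Of the 100-base windows of C4b, the length of the reads, 16.5% occurred exactly in C4a. The pair shown here holds the 60 bases with the most differences within the first 4500 bases of C4b-201 and past its first 1000, since reads can be assigned only where the genes differ. It covers bases 2761 to 2820 of C4b-201 and bases 2755 to 2814 of C4a-207 in GENCODE M21, and capitals mark the 13 bases that differ.
C4b: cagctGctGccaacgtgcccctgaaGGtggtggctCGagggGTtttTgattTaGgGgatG
C4a: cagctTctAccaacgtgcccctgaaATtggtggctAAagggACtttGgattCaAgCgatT
Control kidneys had 12, 36, 39 and 0 counts of C4a, set A had 45, 73, 0 and 40, and set B had 1, 0, 0 and 0. Set B was thus at or below 3 counts in all kidneys. Against control, edgeR gave C4a an adjusted p of 0.787 for set A and 0.107 for set B, where the unadjusted p was 0.0309. In DESeq2 the adjusted p for set B was 0.0326, so the call of C4a depends on the tool. Both genes are uncertain to the extent that the counting of shared reads is not given in the sources used here.

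The C1q chains had too few counts to be compared between groups. C1qb, C1qc and C1qa lie side by side on the minus strand of chromosome 4 of mm10, from 136880129 to 136886187, 136889804 to 136893065 and 136895917 to 136898803. C1qa had 23 and 6 counts in control replicates 2 and 4, 15 in set B replicate 1 and 0 elsewhere. C1qb had 1 and 29 counts in control replicates 1 and 4, 13 in set A replicates 1 and 4, 36 in set B replicate 3 and 0 elsewhere. C1qc had 13 counts in set A replicate 1 and 0 in all other kidneys. Of 36 values for the chains, 27 were 0 and 8 were above 3. Only 2 kidneys had a pair of chains above 3 counts and no kidney had all 3, although the protein contains the chains in equal number. C1qa and C1qc did not pass the filter. C1qb did, and its log2 fold change of 0.54 in set A had a 95% interval from -4.95 to 6.02 (edgeR adjusted p = 0.941), while in set B it was 1.09 with an interval from -4.44 to 6.61 (edgeR adjusted p = 0.860).

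The regulators were as sparse. Cfi (chromosome 3 of mm10, plus strand, 129835884 to 129875332) had 18, 0, 31 and 0 counts in the controls, 0 in all 4 kidneys of set A and 24, 0, 26 and 0 in set B. The controls at 0 overlapped set A, and the difference missed the threshold (edgeR adjusted p = 0.139). Cd55 (chromosome 1, minus strand, 130439027 to 130462744) had 24, 0, 27 and 71 counts in control kidneys, 0, 0, 65 and 0 in those of set A and 38, 6, 29 and 0 in those of set B. Cd59a (chromosome 2, plus strand, 104095801 to 104115354) had 27, 0, 1 and 1 counts in control kidneys, 0, 0, 75 and 22 in those of set A and 5, 21, 38 and 0 in those of set B. The groups overlapped for all 3 regulators, and apart from Cfi in set A each group held kidneys with and without counts. For Cd55 the log2 fold change was -1.47 in set A (95% interval -6.22 to 3.28, edgeR adjusted p = 0.766) and -0.40 in set B (95% interval -5.07 to 4.27, edgeR adjusted p = 0.946). For Cd59a it was 1.13 in set A (95% interval -3.73 to 6.00, edgeR adjusted p = 0.836) and 1.30 in set B (95% interval -3.59 to 6.18, edgeR adjusted p = 0.795). The near copies Cd55b and Cd59b were listed at 0 in every kidney, and 6.86% of the 100-base windows of Cd55 and 0.293% of those of Cd59a occur in them.

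Across C1qa, C1qb, C1qc, Cfi, Cd55 and Cd59a, 44 of 72 values were 0 and 22 were above 10, with 3 from 1 to 3 and 3 from 4 to 10. Most values of these genes were thus either listed at 0 or above 10. The between-kidney coefficient of variation that edgeR estimated was 0.295 for C3 and 0.415 for Cfb, against 1.14 for C4b and 2.07 to 2.602 for C1qb, Cfi, Cd55 and Cd59a.

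**Figure D3:**
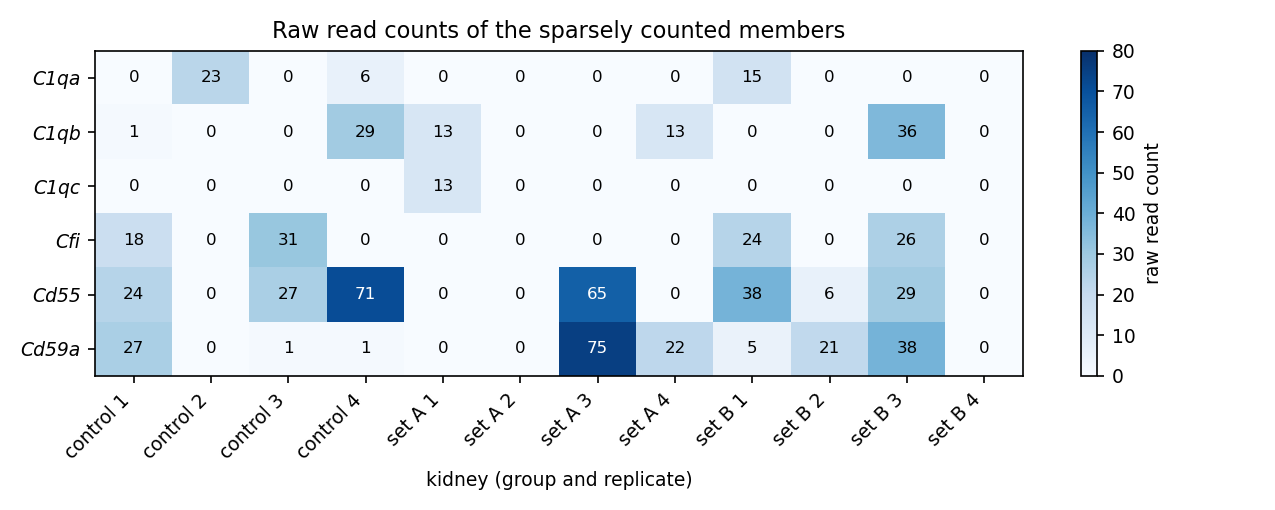
Raw read counts of 6 members (rows) in the 12 kidneys (columns, by group and replicate), with each count written in its cell and the colour scale running from 0 to 80 counts. Most cells hold 0 and the highest is 75, and Cfi is at 0 in all of set A.

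**Figure D4:**
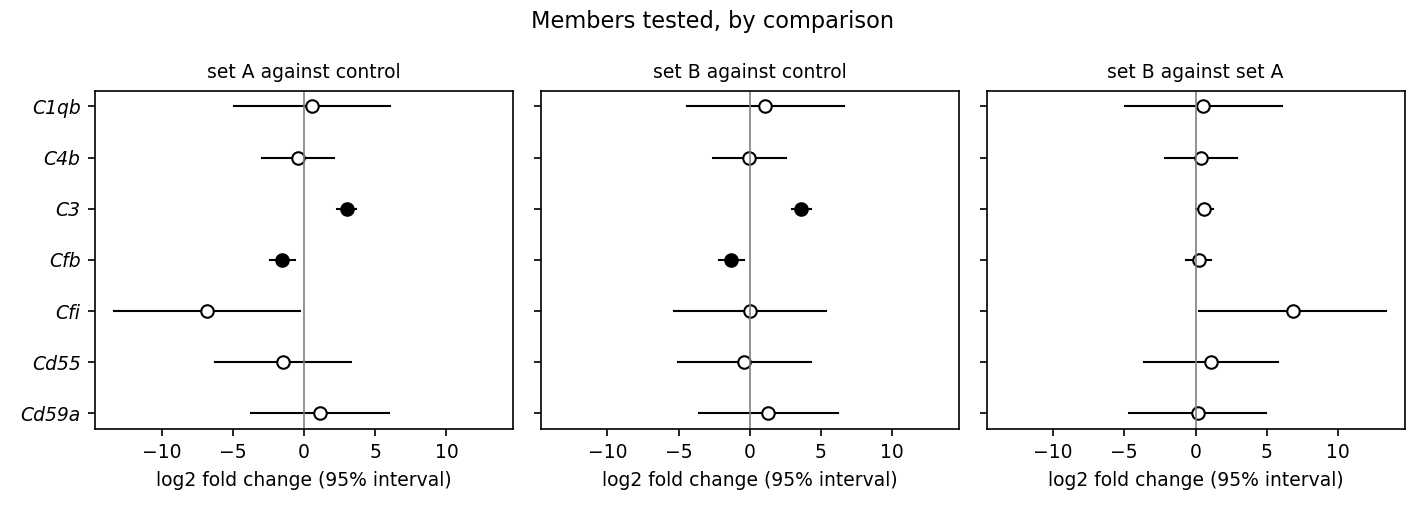
Log2 fold changes of the 7 members tested, with 95% intervals from edgeR, for the 3 comparisons on a common axis. Filled points passed an adjusted p of 0.05, which C3 and Cfb did in both sets against control and no member did in set B against set A.

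Between the ischemia sets no member was called by edgeR, DESeq2 or limma-trend, where 0.00857% of all genes tested were called in edgeR. At an unadjusted p below 0.05, edgeR held C3 and Cfi among the members and 587 genes in all. No member was free of overlap between the sets, as 1.4% of all genes were with set B higher and 1.25% with set B lower. C3 was higher in set B by a log2 fold change of 0.63 (95% interval 0.02 to 1.23), with an unadjusted p of 0.0433 and an adjusted p of 0.981 in edgeR, and the sets overlapped. Without replicate 3 of set B the difference was 0.26. Cfb differed by 0.22 with a 95% interval from -0.65 to 1.08 (unadjusted p = 0.603 in edgeR), which includes a difference of 2-fold. Cfi, at 0 in all of set A, had counts in 2 kidneys of set B and an edgeR adjusted p of 0.981. For C4b the interval ran from -2.13 to 2.94, and for C1qb, Cd55 and Cd59a it was wider still.

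Levels of cell type markers were set beside the members. Injured tubule markers (Havcr1, Lcn2, Krt20, Sox9) moved with C3, with a summed level of 0 to 9.19 CPM for control, 152.5 to 208.9 for set A and 131.2 to 164.2 for set B, and all 4 were called higher in each set. As a sum, tubule and podocyte markers fell in both sets, as Cfb did. Summed levels were 8065 to 9193 CPM for control, 1653 to 2122 for set A and 1790 to 2327 for set B. Slc34a1 alone had a mean of 4866 CPM for control, 423.9 for set A and 427.5 for set B. Slc12a3 had means of 953.6, 830.9 and 882.6 CPM in the same order, and Umod 113.6, 128.7 and 129.9. In each set 4 of 9 were called lower and 5 were not called. The median log2 fold change of the list was -0.22 for set A and -0.14 for set B. The part of these markers in the changes of C3 and Cfb was not tested. Macrophage markers summed to 151.7 to 202.4 CPM for control, 112.9 to 220.0 for set A and 107.3 to 222.7 for set B, with 7 of 10 tested and only Csf1r called, which was lower in both sets. Tyrobp and Ms4a7 were listed at 0 throughout. Neutrophil markers were at 0 in the controls and summed to at most 0.982 CPM for set A and 2.73 CPM for set B, none of them past the filter, and S100a8, Retnlg and Mpo were listed at 0 in every kidney. Of the hepatocyte markers, Apoa1 and Apoc3 were listed at 0 and Alb had at most 9 counts, and the sum was 18.6 to 23.2 CPM for control, 5.79 to 17.8 for set A and 4.69 to 21.8 for set B. Fgb was called higher in both sets and Ttr lower in set B. The 5 adipocyte markers were listed at 0, endothelial markers summed to 51.0 to 60.3, 33.9 to 63.1 and 38.0 to 59.9 CPM with none called, and the erythrocyte sum was 58.2 to 118.8 CPM for control, 25.2 to 48.8 for set A and 14.5 to 31.5 for set B. The erythrocyte sums of both sets thus lay below all controls, as the values of Cfb did, with Hbb-bs called lower in both sets (edgeR adjusted p = 0.00211 and 2.72e-05), Alas2 called lower in set B (edgeR adjusted p = 0.0266) and Hba-a1 and Hba-a2 listed at 0. Their part in the change of Cfb was not tested.

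The rest of the complement system was followed in a list of 48 other genes, of which 22 were listed at 0 in all kidneys and 19 passed the filter. In each set, 1 of the 19 was called higher and 1 lower, where 10.5% and 11.7% of all genes tested were called in set A and 10.9% and 11.9% in set B. The median log2 fold change over the 19 was 0.21 for set A and -0.40 for set B, beside -0.02 over all genes in each. The gene that rose was Clu, whose product clusterin blocks assembly of the terminal pore. It had 7.51, 7.89, 3.77 and 5.95 CPM in control kidneys, 160.5, 116.7, 115.5 and 134.1 in those of set A and 111.3, 153.1, 168.7 and 197.4 in those of set B. All ischemic kidneys were far above the controls, and the log2 fold change was 4.37 for set A (standard error 0.24, edgeR adjusted p = 1.32e-10) and 4.62 for set B (standard error 0.24, edgeR adjusted p = 8.96e-11). The gene that fell was C8a, which encodes a chain of the terminal pore. Its counts were 240, 220, 483 and 513 in the control kidneys and it was listed at 0 in all 8 ischemic kidneys (edgeR adjusted p = 3.27e-05 for set A and 4.48e-05 for set B), so no fold is given.

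By role, 4 of 6 other classical pathway genes were tested and edgeR called none in the fit of all kidneys, while DESeq2 called C4a lower in set B. Of the lectin pathway, 2 of 8 were tested and edgeR called neither in the fit of all kidneys, while DESeq2 and limma-trend called Masp2 lower in set A. The recognition molecules Mbl1, Mbl2, Fcna and Fcnb were listed at 0. Factor D (Cfd) was listed at 0 in every kidney, and properdin (Cfp) was tested and not called by edgeR. Of 7 terminal pathway genes 2 were tested, C8a and C7. Of 10 receptors 5 were tested and none was called by edgeR, and the anaphylatoxin receptor genes C3ar1, C5ar1 and C5ar2 did not pass the filter. Of 6 membrane regulators 1 was tested, Susd4, and not called by edgeR.

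Serping1, Masp2 and Cpn1 are named after their values were seen. Serping1, which encodes the inhibitor of the C1 proteases, had 4.82 to 6.68 CPM for control, 0.043 to 4.57 for set A and 1.49 to 4.36 for set B, without overlap, but the fit did not call it (edgeR adjusted p = 0.651 and 0.384). Masp2, a protease of the lectin pathway, had 26, 16, 24 and 72 counts in the controls, 0 in all 4 kidneys of set A and 0, 7, 0 and 0 in set B (edgeR adjusted p = 0.0652 and 0.423). For set A the adjusted p of Masp2 was 0.0227 in DESeq2, 0.0244 in limma-trend and 0.0376 in edgeR fitted to the 2 groups alone. Cpn1, the catalytic chain of the carboxypeptidase that trims C3a and C5a, had a mean of 22.9 ± 9.42 CPM (SD, n = 4) for control, 11.9 ± 2.84 for set A and 21.2 ± 10.2 for set B (edgeR adjusted p = 0.0936 and 0.903).

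**Figure D5:**
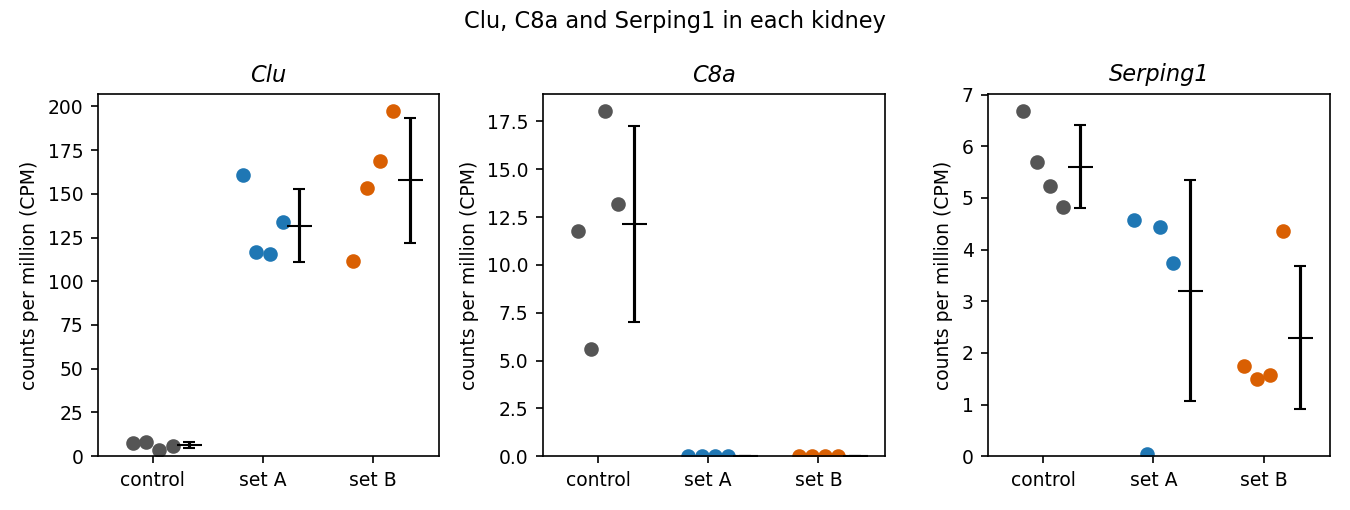
CPM of Clu, C8a and Serping1 on linear axes from 0, with a point for each kidney and the mean with a bar of 1 SD. Clu rises from under 7.90 CPM to over 111 CPM, C8a is at 0 in all ischemic kidneys, and Serping1 is lower in all ischemic kidneys without passing the test.

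The genes whose pattern was most like that of C3 over the 12 kidneys were Myc and Myof, with a root mean square difference of 0.40 and 0.52 on the log2 CPM scale after each gene was centred on its own mean. Mean levels of Myc were 4.93, 58.5 and 50.4 CPM in the controls, set A and set B. Those closest to Cfb were Alpl and Aldh7a1, with differences of 0.30 and 0.31, and Alpl fell from 30.1 CPM in the controls to 8.45 in set A and 11.2 in set B as a mean.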

How the data were processed

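Stranded mRNA libraries of 12 mouse kidneys were sequenced as single reads of 100 bases, from 4 mice per group by the series design. The raw counts deposited by the authors came from HTSeq after alignment to mm10 with STAR and were not normalized. Software versions, annotation, strand setting and duplicate handling are not given in the sources used here, and no batch is labelled.

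R 4.3.3 with edgeR 4.0.16 was used for testing. After edgeR's default low-count filter and TMM scaling (factors 0.968 to 1.03), all 12 kidneys entered a model with a coefficient per group. Quasi-likelihood F-tests were two-sided, with Benjamini-Hochberg adjustment over 11664 genes and a threshold of 0.05. No library pair within a group agreed within sampling noise. On simulated counts for set A against control over 11664 genes, 118 of 200 genes changed 4-fold were called, 0 had the wrong sign, and 2 unchanged genes were called. The changed genes were drawn only from those above a minimum expected control count, so the rate does not cover C1qb, Cfi or Cd59a. CPM used the counted totals, and exonic lengths and positions came from GENCODE M21 (mm10). Of the 48 other complement genes 3 were matched by an older symbol.

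The members and lists were chosen with earlier results of these data known. Genes named by rule beyond the members were the other complement genes called in any comparison, the near copies C4a, Cd55b and Cd59b, the 2 genes most similar in pattern to each member, and markers beside a result. Alternatives were DESeq2 1.42.0, limma-trend (limma 3.58.1), RLE factors, no filter, a filter that asks 4 kidneys or more for a value over 1 CPM, only the 2 groups compared, a replicate block and leaving out each kidney. Python 3.11.15, Biopython 1.88 and matplotlib 3.10.9 served for other steps.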

Additional observations from a re-analysis of the deposited data

Results flagged for a closer look

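By Dixon's criterion, a single kidney stood apart from the other 3 of its group in 7 of the 23 groups of member values that were not all 0. For C3, set B replicate 3 had 195.8 CPM against 97.2 in the next highest kidney, and chance flags about 1 in 20 such groups. The remaining cases are sparsely counted members, to which that rate does not apply. In 4 of them the other 3 kidneys were at 0, so that any lone count meets the criterion, namely C1qa in set B replicate 1 (0.502 CPM), C1qb in set B replicate 3 (1.78 CPM), C1qc in set A replicate 1 (0.416 CPM) and Cd55 in set A replicate 3 (1.45 CPM). C1qb in control replicate 4 (0.744 CPM) and Cd59a in control replicate 1 (1.33 CPM) stood beside kidneys with at most 1 count.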

How the results depend on the processing

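The calls of C3 and Cfb against control held in both sets under the 7 alternatives other than leaving out a kidney, with log2 fold changes of 2.97 to 3.03 and 3.58 to 3.64 for C3 and -1.66 to -1.50 and -1.46 to -1.28 for Cfb in set A and set B. No member was called between the sets under any alternative. The count of all genes called between the sets was 6 without a low-count filter, 0 with the 2 groups alone, 44 in DESeq2 and 0 in limma-trend, and with single kidneys left out it ranged from 0 to 7. Of the other complement genes, 4 were called in set A against control when the 2 groups were fitted alone, with Masp2 (adjusted p = 0.0376) and Cpn1 (0.04996) added to Clu and C8a. Masp2 was also called there by DESeq2 (0.0227) and limma-trend (0.0244), and C4a in set B against control by DESeq2 (0.0326). With a kidney left out, edgeR called Cpn1 in set A without control replicate 3 (adjusted p = 0.0451) or set B replicate 4 (0.0306), and C1s1, named after its values were seen, in set B without set B replicate 3 (0.0252). With single kidneys left out, 1 to 2 members were called in set B against control, Cfb being lost without control replicate 2 or 4 or set B replicate 2 or 4. The cause was not tested.

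Signs that turned were all of uncalled members. Cfi in set B against control was -0.012 without a filter and -0.0048 in limma-trend, C4b in the same comparison was 0.0097 with the filter of more than 1 CPM, and C1qb in set B against set A was -0.41 in limma-trend. With single kidneys left out, C1qb ranged from -0.55 to 0.95 in set A against control. In set B against control the ranges were -0.61 to 0.39 for C4b, -5.51 to 1.49 for C1qb, -0.92 to 0.83 for Cfi and -0.87 to 0.069 for Cd55. In set B against set A they were -0.17 to 1.01 for C4b, -6.04 to 1.62 for C1qb and -0.57 to 0.92 for Cd59a.

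Deviations of the 12 same-numbered pairs correlated between -0.055 and 0.045 over all genes tested, which gave no sign of pairing by replicate number. Pairing is not excluded by this, since many genes were sparsely counted and differently numbered pairs were not compared. With the replicate block, 2491 genes were called in set A, 2531 in set B and 1 between the sets, and the calls of the members did not change. C1qb in set B against set A was -0.31 with the block.

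For the 6 sparse members, a count of 0 allows up to 0.195 CPM in the shallowest library by counting error alone. The deepest library, set A replicate 3, was at 0 for C1qa, C1qb, C1qc and Cfi, and the part of depth in these zeros was not tested.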

Other observations

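For the 5 other members tested, the most similar genes over the 12 kidneys were Rfxap and Nipal3 for C4b (root mean square difference 0.98 and 0.998 on the log2 CPM scale), Gpr153 and Zbtb49 for C1qb (1.06 and 1.15), Agbl3 and Il4ra for Cfi (0.67 and 0.77), Dbi and Pla2g12a for Cd55 (0.98 and 1.14) and Arf2 and Mir744 for Cd59a (0.54 and 0.74). These members were at 0 in 2 or more kidneys.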
